A study of Mus musculus with 4 samples.

Results

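Fibroblast growth factor (FGF) ligands and receptors were followed in mouse 3T3-L1 preadipocytes through 10 genes: the ligands Fgf1, Fgf2, Fgf7, Fgf10, Fgf18 and Fgf21, and the receptors Fgfr1, Fgfr2, Fgfr3 and Fgfrl1. A probe was taken where its RefSeq transcript maps to one of these genes. This gave 16 of the 55681 probes on the array and 10 of 20956 named genes. Fgf1, Fgf18, Fgfr2 and Fgfr3 have 2 probes each, Fgfr1 has 3 and the other genes have 1.

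FGFs are secreted proteins that bind receptor tyrosine kinases together with heparan sulfate chains on the cell surface. The receptors signal through the adaptor FRS2 and the RAS-ERK cascade, which Sprouty proteins and dual-specificity phosphatases hold back. FGF7 and FGF10 bind mainly the epithelial splice form of FGFR2, FGF1 binds all receptors, and FGF21 is a hormone that acts through FGFR1 with the coreceptor beta-klotho. In mouse adipose tissue FGF10 is known from preadipocytes, where it favours their growth and differentiation, and FGF21 from adipocytes, where PPARgamma induces it.

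The study compared Lamp2a knockdown cells and control cells. LAMP2A is the lysosomal receptor of chaperone-mediated autophagy, and the method of the knockdown is not stated in the labels. The 4 groups were knockdown at day 2, control at day 2, knockdown at day 0 and control at day 0. Day 0 is confluence in medium with 10% serum, and day 2 follows induction of fat-cell differentiation in that medium, to which insulin (160 nM), dexamethasone (250 nM) and isobutylmethylxanthine (0.5 mM) had been added. Each group had 1 culture on 1 array, so there is no replicate spread, no test was run and no difference has a replicate check. No culture was kept without the hormones, so hormones and time in culture cannot be told apart.

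Levels are given as scaled signals, the processed signal of a probe divided by the 75th percentile of its array and multiplied by 1000. A gene was called higher or lower at a ratio of at least 2-fold at its brightest probe. A spot error on the log2 scale accompanies ratios. For a probe printed 10 times on each array, it is the error of the mean of its own spots. For a probe with a single spot, it is the spread of spots among probes of like signal printed 10 times. The first kind is an average over spots, so the kinds are not comparable in size. Both cover the error within arrays alone. Genes whose mean level stayed under the 95th percentile of 1063 olfactory receptor genes, a class not known from fibroblasts, are called dim and the others bright. Fgf7, Fgf10, Fgfr1, Fgfr2, Fgfr3 and Fgfrl1 were bright, and Fgf1, Fgf2, Fgf18 and Fgf21 were dim. In bulk RNA, fewer cells of a type and less RNA per cell cannot be told apart.

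The arrays differed in their low signals. Of all spots, 78.7% were well above background in knockdown cells at day 2, 84.2% in control cells at day 2, 88.6% in knockdown cells at day 0 and 67.4% in control cells at day 0. The olfactory receptor genes had a median scaled signal of 21.4, 23.0, 23.7 and 6.92 on these arrays in the same order. By the array barcodes, the control day 0 array was not on the slide that the other 3 shared. In comparisons with the control day 0 array, a difference of slide therefore cannot be told apart from one of group. One Lamp2 probe (NM_001017959) gave 3241 in knockdown and 11380 in control cells at day 2, and 4762 in knockdown and 19690 in control cells at day 0, so it was 3.51-fold and 4.13-fold lower in knockdown cells, while the other (NM_010685) was 1.08-fold and 1.29-fold lower. The splice form behind either Lamp2 probe is not stated. Of 9 fibroblast and preadipocyte markers, 8 were well above background in knockdown cells at day 2 and 9 on each other array. Pdgfrb was 2.06-fold and the dim Cd34 at least 7.74-fold lower in knockdown cells at day 2, and Thy1 was 2.98-fold lower in them at day 0. The muscle gene Acta1, the 1 bright gene of 6 muscle markers, was lower in knockdown cells too, by 11.8-fold at day 2 and 4.29-fold at day 0. It was the 1 call of the 6 at day 2, where 2.86% of all genes were higher and 3.98% lower. At day 0, 4 others of the 6 were higher in knockdown cells, where 18.3% of all genes were. These 4 were dim (Myog, Cnn1, Ckm and Myh11) and are compared with the array that had the lowest low signals. The part of these markers in the results was not tested. Of 6 epithelial markers, 5 were well above background in knockdown cells at day 0 and 3 on each other array. One of the 6, Epcam, was not well above background on any array.

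**Figure D1:**
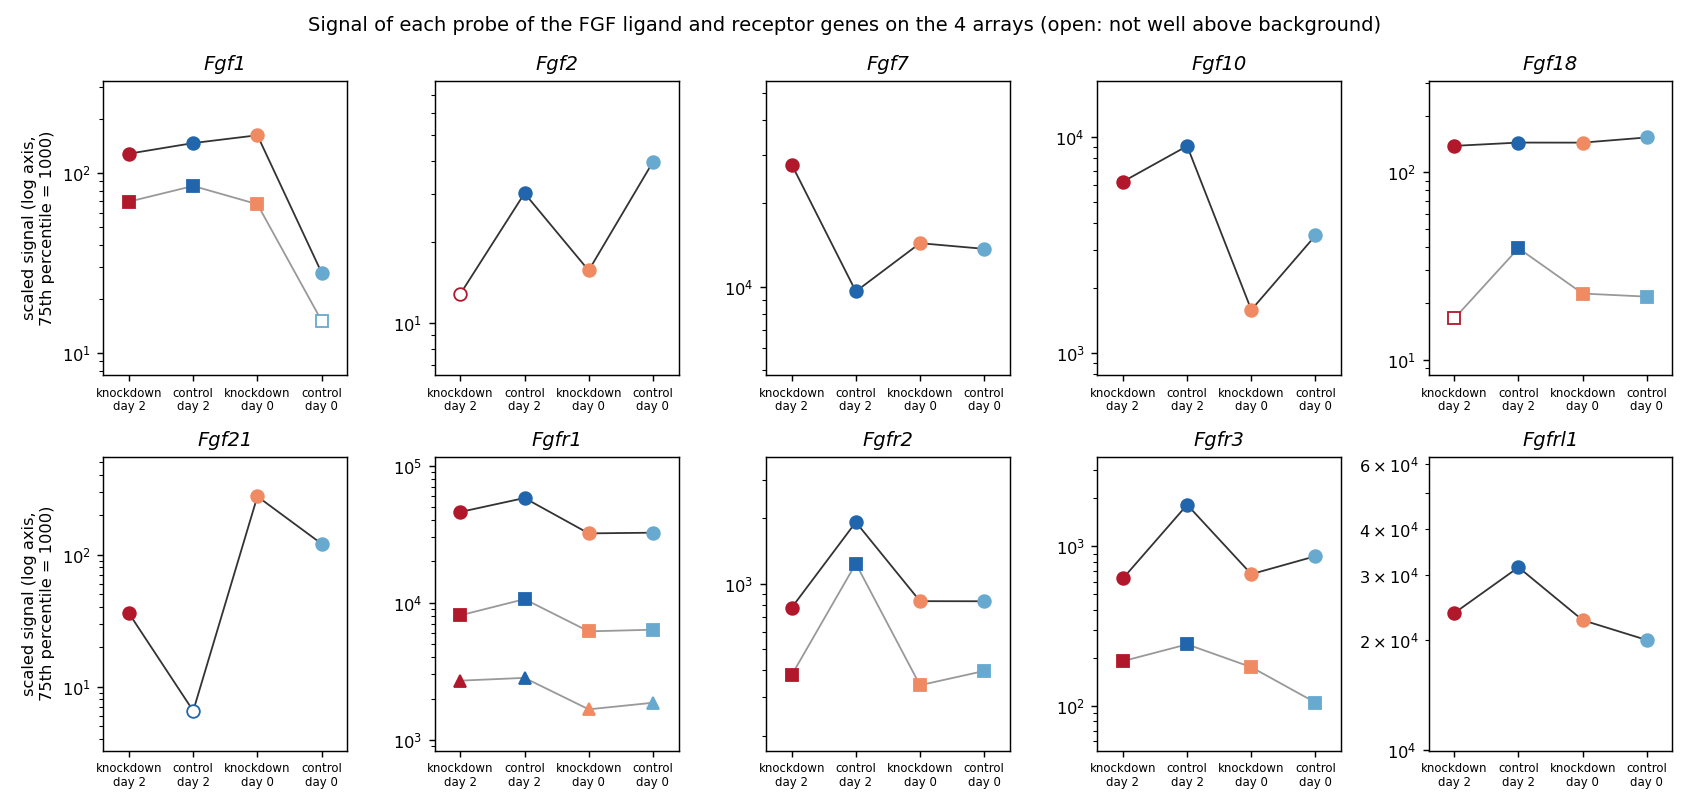
Scaled signal (log axis, 75th percentile of each array = 1000) of every probe of the 10 genes on the 4 arrays, each point being 1 array, circles the brightest probe, squares and triangles the further probes, open symbols not well above background. Fgfr2 and Fgfr3 were highest in control cells at day 2 at both of their probes, Fgf7 was highest in knockdown cells at day 2, and Fgf21 was lower at day 2 than at day 0 in both kinds of cell.

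Of the ligands, Fgf7 and Fgf10 were the bright ones. Fgf7 was higher in knockdown cells at day 2, and Fgf10 was higher at day 2 than at day 0 in both kinds of cell and lower in knockdown cells at day 0. Fgf7 (NM_008008, chromosome 2) encodes keratinocyte growth factor, a mesenchymal ligand of the epithelial form of FGFR2. Its scaled signal was 27620 in knockdown cells at day 2, 9627 in control cells at day 2, 14370 in knockdown cells at day 0 and 13710 in control cells at day 0. Knockdown cells at day 2 were thus highest and control cells at day 2 lowest, while the day 0 arrays differed by less than the spot error. Fgf7 was 2.87-fold higher in knockdown cells than in controls at day 2, a log2 ratio of 1.52 with a spot error of 0.06, and the log2 ratio at day 0 was 0.07. From day 0, its signal at day 2 was 1.92-fold greater in knockdown cells, just short of the 2-fold size, and 1.42-fold smaller in control cells. The log2 ratio of knockdown to control at day 2 minus that at day 0 was 1.45.

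Fgf10 (NM_008002, chromosome 13), which encodes the other mesenchymal ligand of FGFR2, was read by a probe with 10 spots on each array. Its mean scaled signal was 6219 in knockdown cells at day 2, 9092 in control cells at day 2, 1584 in knockdown cells at day 0 and 3502 in control cells at day 0. The spots ranged over 6012 to 6773, 8615 to 9471, 1471 to 1674 and 3226 to 3786 on these arrays, so no pair of arrays overlapped. The gene was higher at day 2 than at day 0 in both kinds of cell, by 3.93-fold in knockdown cells and by 2.60-fold in control cells. Knockdown cells had less of it on both days, with a log2 ratio of -1.15 (spot error 0.03) at day 0, which is 2.21-fold lower, and of -0.55 (spot error 0.02) at day 2, which is under the 2-fold size. The fold size from day 0 to day 2 in knockdown over that in control cells was 1.51.

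The promoters of the 2 genes are shown because both ligands bind FGFR2 yet had opposite signs in the knockdown comparison at day 2. They are the 250 bases before the annotated start in RefSeq on GRCm38.p6, read 5′ to 3′ on the strand of the gene, at chr2:126034408-126034657 (plus strand) for Fgf7 and chr13:118714449-118714698 (plus strand) for Fgf10. Capitals mark a match to a searched motif.
Fgf7: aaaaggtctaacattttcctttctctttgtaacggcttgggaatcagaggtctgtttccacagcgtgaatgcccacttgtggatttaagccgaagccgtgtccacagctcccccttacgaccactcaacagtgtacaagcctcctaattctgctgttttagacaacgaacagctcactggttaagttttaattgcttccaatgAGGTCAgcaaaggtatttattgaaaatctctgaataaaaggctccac
Fgf10: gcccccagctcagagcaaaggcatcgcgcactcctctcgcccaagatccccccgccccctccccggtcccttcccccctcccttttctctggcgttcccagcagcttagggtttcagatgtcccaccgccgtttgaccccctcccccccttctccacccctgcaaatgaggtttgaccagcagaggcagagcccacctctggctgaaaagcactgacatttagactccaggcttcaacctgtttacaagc

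Searched on both strands were the CRE half-site TGACG, the glucocorticoid half-site AGAACA, the C/EBP motif TTNNGNAA, the nuclear receptor half-site AGGTCA, the C/EBP-ATF composite TGATGNAA and the TATA box TATAAA. Of the 32851 RefSeq promoters of this length, 17.8%, 16.1%, 36.8%, 14.0%, 3.45% and 12.4% held them, in that order. The Fgf7 window held 1 match, to AGGTCA on the strand of the gene, 47 to 42 bases before the start. The Fgf10 window held none of the 6 motifs. RefSeq promoters matched 8 of the 10 genes, and Fgf1 and Fgfr1 are named without one.

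Fgf1 and Fgf2, the ligands without a classical secretion signal, were both dim, and their day 0 differences ran in opposite directions. Fgf1 (NM_010197, chromosome 18) had a scaled signal of 128 in knockdown cells at day 2, 147 in control cells at day 2, 162 in knockdown cells at day 0 and 28.1 in control cells at day 0 at its brightest probe. Control cells at day 0 stood apart as the lowest, and the other 3 arrays lay close together, with log2 ratios of -0.20 (spot error 0.17) for knockdown over control at day 2 and -0.34 (spot error 0.22) for day 2 over day 0 in knockdown cells. Fgf1 was therefore 5.78-fold higher in knockdown cells than in controls at day 0 and 5.23-fold higher at day 2 than at day 0 in control cells. The log2 ratio at day 0 was 2.53, but 1.48 to 1.61 with normexp background correction or after quantile or cyclic loess normalization. That of the control time course was 2.39, but 1.33 to 1.46 under the same alternatives. The second probe read 69.5, 84.8, 67.2 and 15.2 on the 4 arrays in the same order, the last not well above background, which gives at least 3.82-fold and at least 4.82-fold for these comparisons. The low reading falls on the array where the olfactory receptor genes also read low, and its part in the result was not tested.

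Fgf2 (NM_008006, chromosome 3), which encodes basic FGF, was read by 10 spots per array. Its mean scaled signal was 12.8 in knockdown cells at day 2, 30.3 in control cells at day 2, 15.6 in knockdown cells at day 0 and 39.5 in control cells at day 0. None of the 9 kept spots was well above background in knockdown cells at day 2, whereas all kept spots were on the other arrays. Both control arrays were above both knockdown arrays, and the kept spots spanned 9.06 to 20.4, 26.7 to 37.2, 13.1 to 17.4 and 31.3 to 52.0 in the order given, so the kept spots of knockdown and control arrays did not overlap on either day. The gene was 2.53-fold lower in knockdown cells than in controls at day 0 and at least 1.82-fold lower at day 2, where 1 side is a bound. Unlike Fgf1, it had its greatest reading on the control day 0 array, the one with the lowest olfactory receptor signals. The call at day 0 did not hold with normexp background correction, where the log2 ratio was -0.64.

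**Figure D2:**
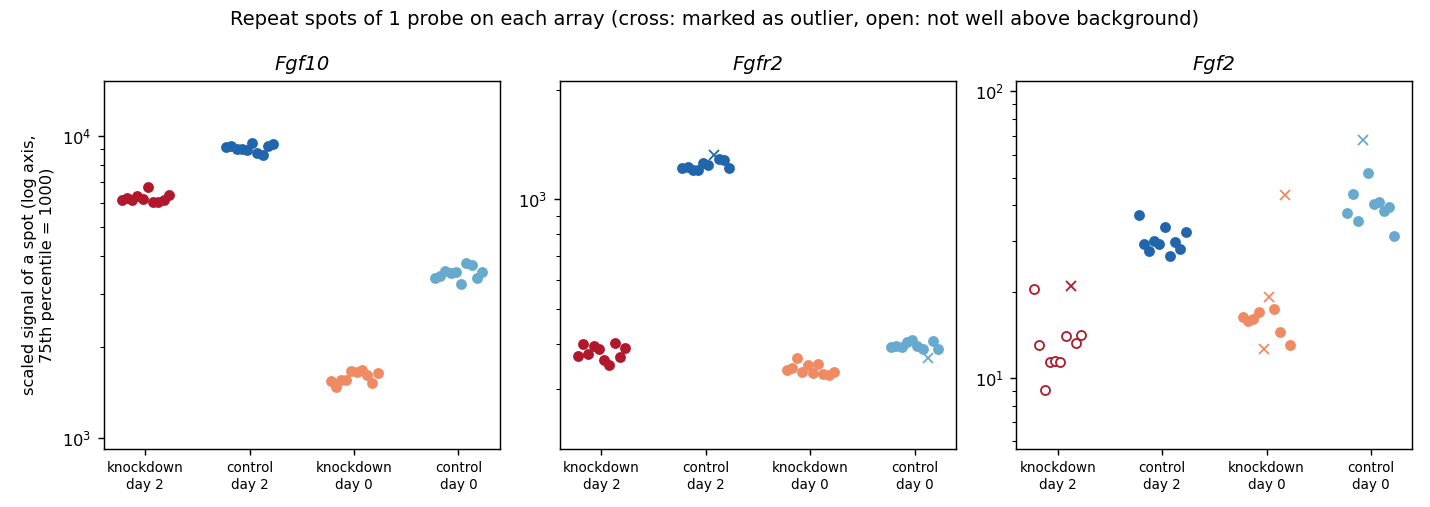
Scaled signal (log axis) of every spot of the 3 probes printed 10 times, for Fgf10, Fgfr2 and Fgf2, on the 4 arrays; crosses are spots marked as outliers and open circles spots not well above background. The Fgf10 spots of the 4 arrays do not overlap, the Fgfr2 spots of control cells at day 2 (1203 to 1288 among those kept) lie apart from the other arrays, and the kept Fgf2 spots lie higher on both control arrays, while 1 outlier spot of knockdown cells at day 0 (43.5) lies among those of the control array.

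Fgf18 (NM_008005, chromosome 11), a ligand known from bone and lung development, showed no difference past the spot error at its brightest probe. The probe read 138 in knockdown cells at day 2, 144 in control cells at day 2, 144 in knockdown cells at day 0 and 154 in control cells at day 0. All of its log2 ratios lay between -0.09 and -0.06, with spot errors of 0.17 to 0.25, and no order of the arrays can be read from them. After quantile and cyclic loess normalization, the ratio of knockdown to control cells at day 0 was -0.68 and -0.91. The second probe read 16.6, 39.4, 22.5 and 21.7 on the arrays, the first not well above background, and gave a bound of at least 2.36-fold lower in knockdown cells than in controls at day 2. The probes of this gene therefore disagreed in size at day 2.

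Fgf21 (NM_020013, chromosome 7), the endocrine ligand, differed most between arrays of all 10 genes. Its scaled signal was 35.8 in knockdown cells at day 2, 6.54 in control cells at day 2, where it was not well above background, 276 in knockdown cells at day 0 and 121 in control cells at day 0. Both day 0 arrays were above both day 2 arrays, and the knockdown array was above the control array on each day. The gene was 7.71-fold lower at day 2 than at day 0 in knockdown cells and at least 9.68-fold lower in control cells. In knockdown against control cells it was at least 2.87-fold higher at day 2 and 2.28-fold higher at day 0. The day 0 ratio was 1.19 on the log2 scale with a spot error of 0.23, and depended on the normalization: it was 0.60 after quantile normalization and -0.15, the opposite sign, after cyclic loess. At day 2 the bound fell to a log2 ratio of 0.74 with normexp. The time courses kept their direction but not their size. The log2 ratio in knockdown cells was -2.95, but -1.78 with normexp, and the bound in control cells was -3.27, but -1.65 with normexp, -4.18 after quantile and -4.59 after cyclic loess normalization.

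The Fgf21 promoter, at chr7:45615491-45615740 on the minus strand of GRCm38.p6, is shown because the gene had the widest range. Capitals mark motif matches.
Fgf21: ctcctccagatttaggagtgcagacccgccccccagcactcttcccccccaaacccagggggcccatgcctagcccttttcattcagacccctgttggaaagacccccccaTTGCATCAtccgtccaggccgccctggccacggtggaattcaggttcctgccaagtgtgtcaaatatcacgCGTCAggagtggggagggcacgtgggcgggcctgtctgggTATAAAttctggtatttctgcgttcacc

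It held 3 matches, none overlapping another. The C/EBP-ATF composite, written TGATGNAA, lay 139 to 132 bases before the start on the strand opposite to the gene. It is the motif that the stress factor ATF4 binds with C/EBP proteins, and 3.45% of promoters held one. A CRE half-site lay 68 to 64 bases before the start, also on the opposite strand, and a TATA box 28 to 23 bases before it on the strand of the gene. These are matches of letters, and binding was not measured.

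Among the receptors, Fgfr2 and Fgfr3 were higher in control cells at day 2 than on the other arrays. Fgfr2 (NM_010207, chromosome 7) encodes the receptor of FGF7 and FGF10 in its epithelial form, and of other ligands in its mesenchymal form. The brightest probe read 776 in knockdown cells at day 2, 1921 in control cells at day 2, 831 in knockdown cells at day 0 and 830.2 in control cells at day 0. The 3 lower arrays lay within about 1 spot error of their neighbours, and control cells at day 2 stood above them. Fgfr2 was 2.48-fold lower in knockdown cells than in controls at day 2, a log2 ratio of -1.31 with a spot error of 0.07, against 0.00 at day 0. It was 2.31-fold higher at day 2 than at day 0 in control cells, while the log2 ratio in knockdown cells was -0.10.

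The second Fgfr2 probe, with 10 spots per array, gave the same order at the top with larger sizes. It read 379.8 in knockdown cells at day 2, 1238 in control cells at day 2, 341 in knockdown cells at day 0 and 397 in control cells at day 0. Its log2 ratio of knockdown to control cells was -1.70 at day 2 and -0.22 at day 0, with spot errors of 0.02. At day 2 it was 3.26-fold lower in knockdown cells than in controls, and control cells had 3.12-fold more than at day 0. Which splice form each probe reads is not stated in the files.

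Fgfr3 (NM_001163215, chromosome 5), known from cartilage growth, had a scaled signal of 630.2 in knockdown cells at day 2, 1823 in control cells at day 2, 669.9 in knockdown cells at day 0 and 868 in control cells at day 0. The knockdown arrays differed from each other by less than the spot error, control cells at day 0 were above both, and control cells at day 2 were highest. The gene was 2.89-fold lower in knockdown cells than in controls at day 2, a log2 ratio of -1.53 with a spot error of 0.08, and 2.10-fold higher at day 2 than at day 0 in control cells. At day 0 the log2 ratio of knockdown to control was -0.37. A second, dim probe read 191, 243, 175 and 105 on the arrays in the same order. It too was highest in control cells at day 2, but its log2 ratio there was -0.35, and at day 0 it was 0.74, of the opposite sign to the brighter probe, against the array on which dim genes read low. The median over both probes was -0.94 at day 2, which misses the 2-fold size.

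The promoters of Fgfr2 and Fgfr3 are shown because both genes read highest in control cells at day 2. They lie at chr7:130266809-130267058 on the minus strand for Fgfr2 and at chr5:33721474-33721723 on the plus strand for the first of the Fgfr3 entries. No base is in capitals because neither held any of the 6 motifs, and the GC content was 44.0% for Fgfr2 and 66.8% for Fgfr3, against a median of 52.4% over all promoters.
Fgfr2: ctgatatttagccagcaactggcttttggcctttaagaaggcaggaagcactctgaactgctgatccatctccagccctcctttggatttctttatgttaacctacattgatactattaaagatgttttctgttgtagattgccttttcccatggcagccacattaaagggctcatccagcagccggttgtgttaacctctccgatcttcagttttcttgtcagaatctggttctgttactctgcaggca
Fgfr3: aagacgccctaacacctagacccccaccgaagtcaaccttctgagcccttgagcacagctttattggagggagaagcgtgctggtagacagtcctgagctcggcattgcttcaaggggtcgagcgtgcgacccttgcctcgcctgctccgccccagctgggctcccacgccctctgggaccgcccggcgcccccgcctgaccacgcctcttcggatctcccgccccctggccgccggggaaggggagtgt

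Fgfr1 (NM_010206, chromosome 8), the receptor that FGF21 uses with beta-klotho and the one best known in preadipocytes, had no ratio past 2-fold at any of its 3 probes. The brightest read 45890 in knockdown cells at day 2, 58000 in control cells at day 2, 32020 in knockdown cells at day 0 and 32390 in control cells at day 0. Both day 2 arrays were above both day 0 arrays at each probe. The second read 8091, 10610, 6177 and 6352 and the third 2699, 2829, 1668 and 1862 in that order. At the brightest probe the signal at day 2 was 1.43-fold that at day 0 in knockdown cells and 1.79-fold in control cells, and the ranges over the probes were 0.39 to 0.69 and 0.60 to 0.84 on the log2 scale. Knockdown against control cells gave log2 ratios of -0.39 to -0.07 at day 2 and -0.16 to -0.02 at day 0.

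Fgfrl1 (NM_054071, chromosome 5) encodes a receptor that binds FGFs but lacks the kinase domain. Its scaled signal was 23610 in knockdown cells at day 2, 31470 in control cells at day 2, 22590 in knockdown cells at day 0 and 19940 in control cells at day 0. Control cells at day 2 were highest, and the knockdown arrays differed by less than the spot error. The log2 ratio of knockdown to control cells was -0.41 at day 2 and 0.18 at day 0, with spot errors of 0.06 and 0.07. From day 0 to day 2 it was 0.06 in knockdown cells and 0.66 in control cells. None of these reached 2-fold.

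**Figure D3:**
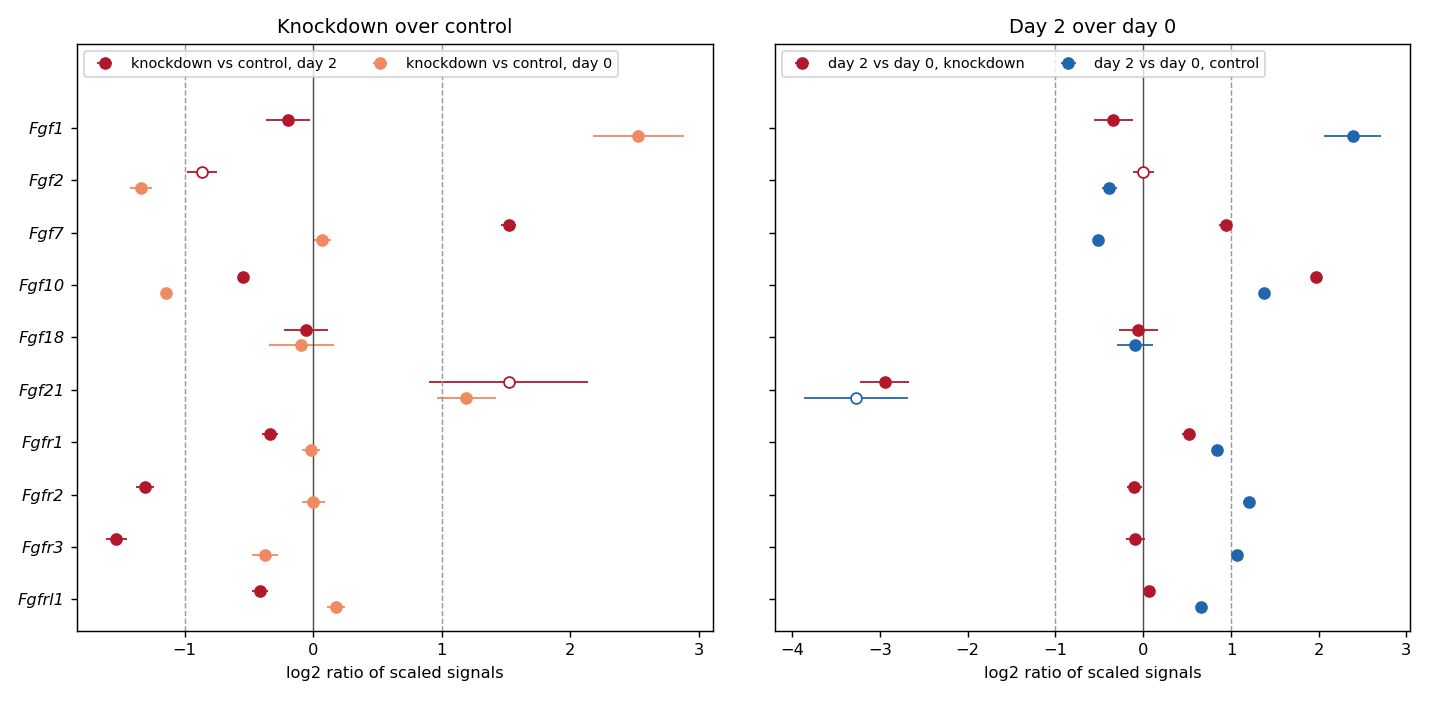
Log2 ratios at the brightest probe of each gene, knockdown over control on the left and day 2 over day 0 on the right, with bars of 1 spot error and open circles for bounds; dashed lines mark 2-fold. At day 2, Fgf7 (1.52) lies on the higher side and Fgfr2 (-1.31) and Fgfr3 (-1.53) on the lower, and Fgf21 lies below -2.9 in both time courses.

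By count, 2 of the 10 genes were higher in knockdown cells than in controls at day 2, Fgf7 and Fgf21, and 2 were lower, Fgfr2 and Fgfr3. Over all 18559 genes compared, 2.86% were higher and 3.98% lower. The median log2 ratio of the 10 was -0.38, against 0.00 over all genes. At day 0, Fgf1 and Fgf21 were higher and Fgf2 and Fgf10 lower, against 18.3% higher and 4.18% lower over 19268 genes, so 2 of 10 higher is near the background. The medians there were -0.01 for the 10 and 0.12 over all. Fgf10 is the bright gene among these 4, and the 3 dim ones are compared with the control day 0 array on which dim genes read low.

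In knockdown cells, Fgf10 was higher and Fgf21 lower at day 2 than at day 0, where 4.97% of 19196 genes were higher and 8.94% lower, and the medians were -0.03 for the 10 and 0.00 over all. In control cells, Fgf1, Fgf10, Fgfr2 and Fgfr3 were higher and Fgf21 lower, where 19.9% of 18655 genes were higher and 8.09% lower. Their median was 0.75, against 0.18 over all genes. The knockdown log2 ratio at day 2 minus that at day 0 could be formed for 8 of the 10. It was past 2-fold upward for Fgf7 and downward for Fgf1, Fgfr2 and Fgfr3, where 2.90% of 15464 genes were past it upward and 16.9% downward, with medians of -0.46 and -0.03. These comparisons share arrays, so their counts are not independent of each other. The split of calls over all genes depended on the scaling: at day 0, 81.4% of called genes were higher in knockdown cells, but 70.8% with normexp, 45.9% after quantile and 36.5% after cyclic loess normalization. In the control time course the share was 71.1%, and 37.2% and 30.5% after quantile and cyclic loess normalization, and for the difference of the days 14.7%, 44.7% and 56.9%.

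Genes around the ligands and receptors were taken from lists of the pathway. Over all genes compared, 2.86% were higher and 3.98% lower in knockdown cells than in controls at day 2, and 18.3% and 4.18% at day 0. Of 12 heparan sulfate proteoglycans, which present FGFs to their receptors, 2 were higher and 1 lower in knockdown cells than in controls at day 2, with a list median of 0.33, and 1 was higher and 4 lower at day 0, with a median of 0.12. Sdc2, a transmembrane syndecan, had scaled signals of 54910 in knockdown and 13370 in control cells at day 2, and of 88880 in knockdown and 19870 in control cells at day 0. This makes it 4.11-fold higher in knockdown cells at the later day and 4.47-fold at the earlier one. The anchored glypican Gpc4 was lower on both days, by 3.20-fold at day 2 and 2.50-fold at day 0. At day 0, Gpc6 was 3.03-fold and the dim Gpc3 2.24-fold lower, and Sdc3 had a log2 ratio of -1.10. Sdc4 was 2.02-fold higher at day 2, which missed 2-fold after quantile and cyclic loess normalization and with the 75th percentile over probes well above background. Of 18 genes that make or edit heparan sulfate, 1 was higher at day 2, the sulfotransferase gene Hs6st1 at 2.07-fold, which missed 2-fold with normexp and without detrending, at a lowest log2 ratio of 0.92. At day 0, 2 were higher, both dim, Hs3st1 at 2.53-fold and Ndst3 at least 2.15-fold, and neither held with normexp, quantile or cyclic loess normalization.

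The coreceptor of FGF21, Klb, was dim, with scaled signals of 91.5 in knockdown cells at day 2, 81.8 in control cells at day 2, 97.1 in knockdown cells at day 0 and 26.2 in control cells at day 0. The control day 0 array was again the low one, and the 3.71-fold higher reading in knockdown cells at day 0 did not hold with normexp, quantile or cyclic loess normalization. Of the 7 FGF21-related adipocyte genes compared at day 2, 1 was higher and 3 lower in knockdown cells than in controls. Over all genes, 2.86% were higher and 3.98% lower. The coactivator gene Ppargc1a was 12.0-fold higher, and Adipoq (adiponectin, dim), Pparg and Dio2 (dim) were 3.07-fold, 2.67-fold and 2.55-fold lower. The Adipoq log2 ratio was -0.77 with normexp. At day 0, Dio2 ran the other way, at 6.06-fold higher in knockdown cells, against the array on which dim genes read low. Dio2 and Klb were the 2 higher genes of the 8 compared at day 0 and none was lower, where 18.3% and 4.18% of all genes were. A list of 7 genes places FGF7, FGF10 and Fgfr2 beside adipogenic factors. Of these, 1 was higher and 3 lower in knockdown cells at day 2, and 0 were higher and 2 lower at day 0. Cebpa was lower on both days, by 3.59-fold at day 2 and 2.00-fold at day 0. The day 0 size was just past the limit, with 1 scaling at a log2 ratio of -0.94. Cebpb ran the other way under the 2-fold size, with log2 ratios of 0.855 at day 2 and 0.29 at day 0.

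Further down the pathway lie the adaptors and the RAS-ERK cascade, read here against 2.86% of all genes higher and 3.98% lower at day 2, and 18.3% and 4.18% at day 0. The regulatory subunit gene of phosphoinositide 3-kinase, Pik3r1, was 2.32-fold lower in knockdown cells than in controls at day 2, the 1 call among 14 adaptors, and none of the 14 was called at day 0. The kinase gene Rps6ka1 was 2.22-fold higher at day 2 and 2.02-fold higher at day 0, the 1 call of 13 cascade genes on each day. Of 13 feedback inhibitors, the dim phosphatase gene Dusp5 was called at day 2, at 2.39-fold higher (a log2 ratio of 0.72 with normexp), and Errfi1, which restrains EGF receptors, at day 0, at 2.75-fold higher. Spry1, the Sprouty gene with the lowest ratio at day 2, had scaled signals of 5688 in knockdown and 10820 in control cells, a log2 ratio of -0.93.

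Of 14 ERK-dependent target factors, 5 were higher and 1 lower in knockdown cells than in controls at day 2, where 2.86% of all genes were higher and 3.98% lower. At day 0, 4 were higher and none lower, where 18.3% and 4.18% of all genes were. The list medians were 0.31 and 0.62, against 0.00 and 0.12 over all genes. Fosl1, an AP-1 subunit, was 4.25-fold higher at day 2 and 4.75-fold higher at day 0, and the ETS factor gene Etv1 2.48-fold and 2.08-fold. Junb and Ier3 were 3.50-fold and 2.47-fold higher at day 2, where Phlda1 had a log2 ratio of 1.08 and cyclin D1 (Ccnd1) one of -1.18. The dim Egr3 was at least 2.27-fold higher at day 0, a call that normexp, quantile and cyclic loess normalization did not give. Etv4, a second ETS factor gene known to follow FGF signalling, was 3.03-fold higher at day 0. It was lower at day 2 than at day 0 by 13.6-fold in knockdown cells and by 5.98-fold in control cells, with scaled signals of 576 and 434 at day 2 against 7846 and 2591 at day 0 in knockdown and control cells. These factors also respond to other growth factors, and a role of FGFs in their levels was not tested. Among 8 FGF binding proteins and partners, the adhesion gene Cdh2 was 3.36-fold lower at day 2 and Fgfbp3 2.10-fold higher at day 0, with log2 ratios of 0.90 to 1.14 under the alternatives.

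**Figure D4:**
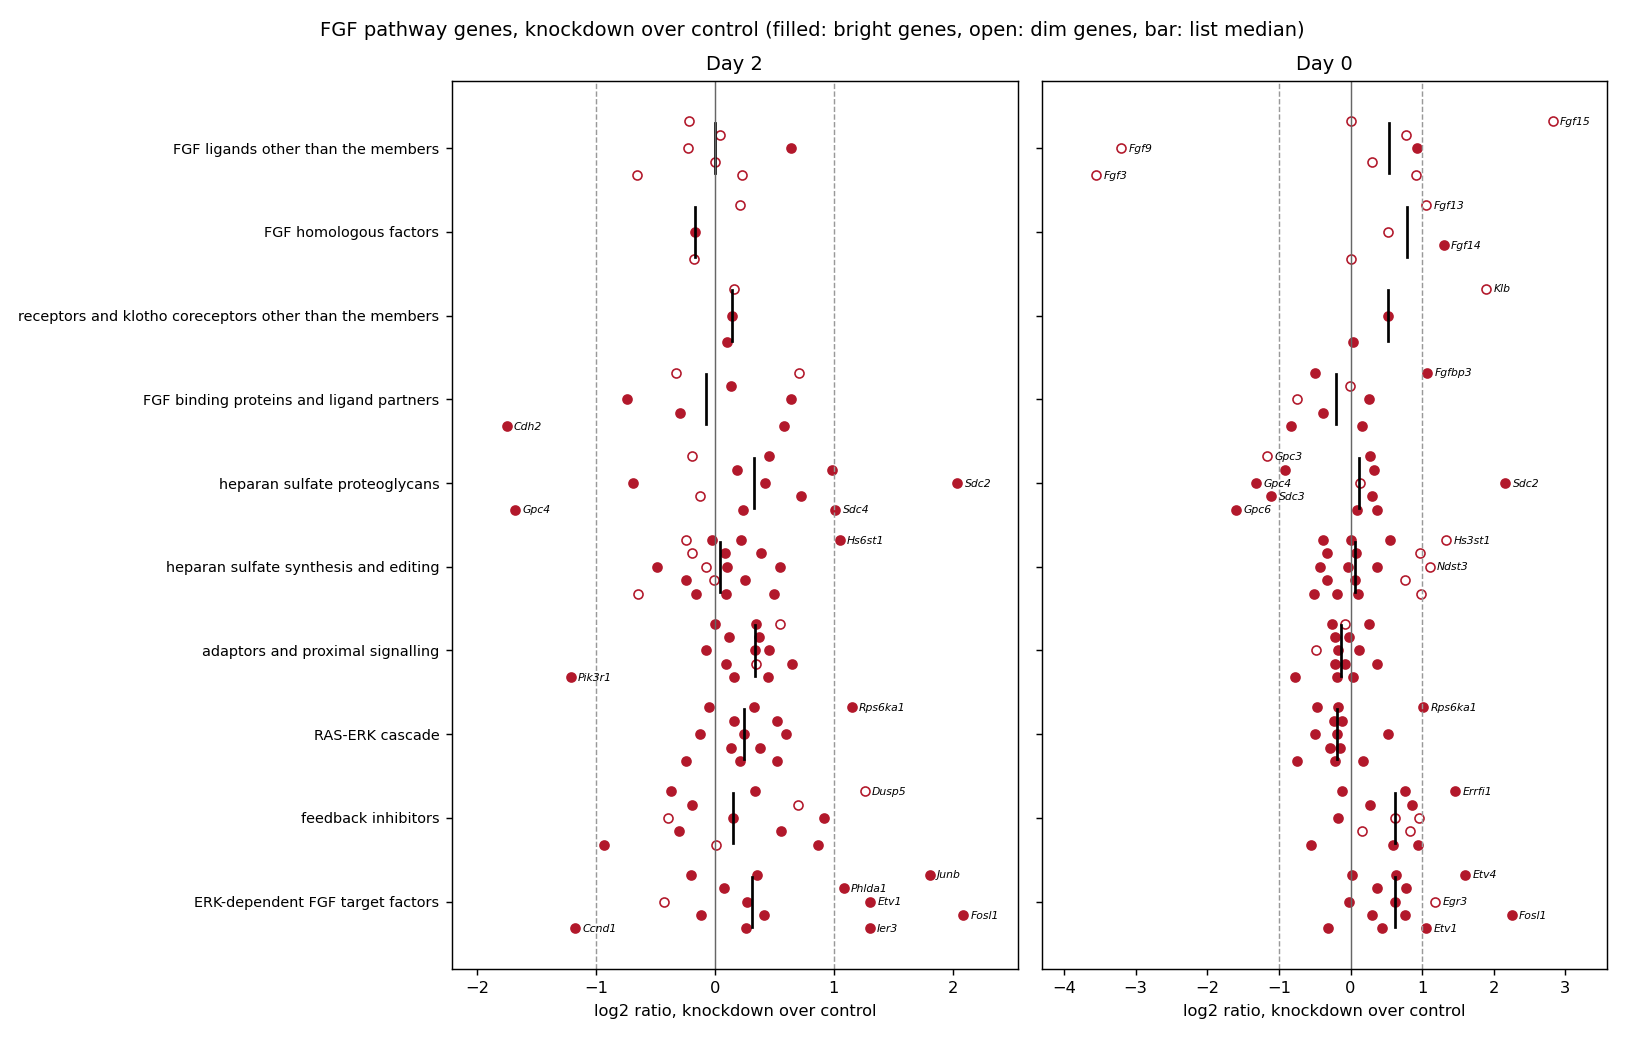
Log2 ratios of knockdown over control at day 2 (left) and day 0 (right) for the genes of the pathway lists. The FGF21-related adipocyte genes and the list of FGF7 and FGF10 beside adipogenic factors are not drawn as lists. Each point is a gene at its brightest probe, filled for bright and open for dim genes. A bar marks the list median and dashed lines mark 2-fold. Sdc2 and Fosl1 lie past 2 on the log2 scale on both days, and Gpc4 lies below -1 on both days.

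Profiles over the arrays were compared between genes for the 5 members that were well above background on every array and ranged over at least 1 log2 unit. The measure was the root mean square difference of profiles centred on their mean over the 4 arrays, among 11367 other bright genes, so each likeness rests on 4 points that share the arrays and their scaling. Nearest to Fgfr2 was Pparg, with a difference of 0.05 on the log2 scale, followed by Pcna and Aifm2 at 0.06 and 0.07. Pparg read 2933 in knockdown cells at day 2, 7836 in control cells at day 2, 3169 in knockdown cells at day 0 and 3142 in control cells at day 0. It ranked 1 to 3 for the brightest Fgfr2 probe under the other normalizations, and 12 to 28 for the probe with 10 spots. Nearest to Fgfr3 were Slc1a5, Glud1 and Kitl, at 0.06, 0.09 and 0.09.

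Nearest to Fgf7 were Ctdspl, Col23a1 and Gsr, at 0.11, 0.13 and 0.13, and nearest to Fgf10 were Nod1, Col11a2 and Ugt1a6b, at 0.11, 0.13 and 0.14. For Fgf1 they were the olfactory receptor gene Olfr611 and the noncoding genes Platr26 and 4930444P10Rik, at 0.07, 0.09 and 0.10, all with their lowest reading in control cells at day 0. Of 7 adipocyte markers, 1 was higher at day 2 than at day 0 in knockdown cells and 6 were in control cells, and none was lower. Over all genes, 4.97% were higher and 8.94% lower in knockdown cells, and 19.9% and 8.09% in control cells. Of the 7, Fabp4 and Lpl were bright, and the others were dim. Fabp4 was called in both kinds of cell. The other calls in control cells were of dim genes, compared with the control day 0 array on which dim genes read low. The summed scaled signal of the 7, mostly from Fabp4 and Lpl, was 84590 in knockdown cells at day 2, 67880 in control cells at day 2, 40570 in knockdown cells at day 0 and 55850 in control cells at day 0. In knockdown against control cells at day 2, 1 of the 7 was higher and 3 were lower, where 2.86% and 3.98% of all genes were. The higher one was the bright Fabp4, at 6.1-fold, which was also 5.3-fold higher at day 0. The lower ones were dim, Plin1 at 4.14-fold, Retn at 3.61-fold and Adipoq at 3.07-fold. The part of these markers in the Fgfr2 and Fgfr3 results was not tested. Epithelial markers, which could accompany the epithelial form of Fgfr2, summed to 400.1, 352, 573 and 174 on the arrays in the same order. Epcam read between 3.96 and 12.6, not well above background on any, whereas Krt14 read 272, 209, 201 and 86.2. Krt8 read 3.47, 10.5, 225 and 13.7, and only the knockdown day 0 array had it well above background. That array was at least 12.8-fold above the control day 0 array for Krt8, and at least 13.5-fold above the knockdown day 2 array. At day 0, 3 of the 5 compared were higher in knockdown cells, where 18.3% of all genes were, and all of the epithelial markers were dim.

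**Figure D5:**
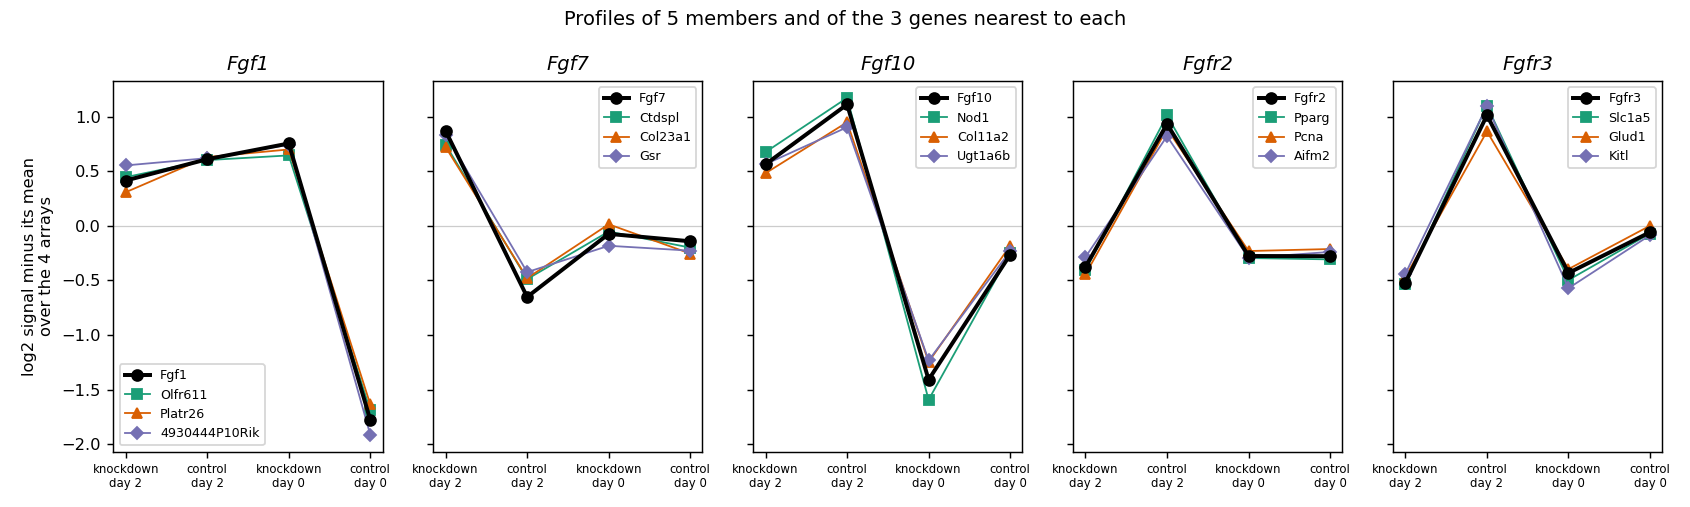
Log2 signal minus its mean over the 4 arrays for Fgf1, Fgf7, Fgf10, Fgfr2 and Fgfr3 (thick black lines) and the 3 genes nearest to each (thin coloured lines), arrays along the horizontal axis. Fgfr2 and Fgfr3 with their neighbours peak in control cells at day 2, and Fgf1 with its neighbours drops in control cells at day 0.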

How the data were processed

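Total RNA of 4 cultures was hybridised with Cy3 to Agilent mouse arrays of design 028005, 1 array per group, per the labels and the file headers. Per the file headers, Feature Extraction 10.7.3.1 subtracted a background and, on 3 arrays but not that of knockdown cells at day 0, applied a multiplicative detrending. The deposited processed signals are linear intensity values, and their 75th percentile ranged from 1103 to 1665 over the arrays. Spots marked as outliers (260 at most on an array) were left out, log2 signals were scaled to the 75th percentile of each array, and repeat spots were averaged. Genes were named through RefSeq transcripts in a GRCm38.p6 table used for names. The probe with the highest mean stands for a gene. Genes were compared when the software marked them well above background on 1 or both arrays. If on 1, the dim side took its own level or the lowest level so marked on its array (9.43 to 17.6 scaled units), whichever was higher, and the ratio is a bound; a bound of the wrong sign was set to 0. Spot errors of probes without repeats come from the 40 probes nearest in signal among 399 printed 10 times.

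The members, gene lists, motifs and rules were chosen with earlier results of these data known. From each pathway list and comparison the rule named up to 4 measured genes past 2-fold and 1 bound, and not every one is printed. Phlda1, Ccnd1 (at day 2), Sdc3 (at day 0), Spry1, Cebpb and Epcam were named after their values were seen. Other settings were normexp (offset 50, on median signals), quantile and cyclic loess normalization (3 iterations), a 75th percentile over probes well above background on all arrays, no detrending, outliers kept, 2 other filters on dim genes, the median of all probes and a 1.5-fold size; bright genes only was added after the data were seen. The number of arrays limits the precision. Python 3.11.15, numpy 2.4.6, pandas 2.3.3, matplotlib 3.10.9, R 4.3.3 and limma 3.58.1 were used.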

Additional observations from a re-analysis of the deposited data

Results flagged for a closer look

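Fgfrl1 had opposite signs in the knockdown comparison on the 2 days, with a log2 ratio of -0.41 at day 2 and 0.18 at day 0, a difference of -0.59. Fgf7 had opposite signs in the time courses, with a log2 ratio of day 2 over day 0 of 0.94 in knockdown cells and -0.51 in control cells, a difference of 1.45. With 1 array per group, neither difference was tested.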

How the results depend on the processing

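Of 19 ratios of the 10 genes past 2-fold, 14 stayed past it under every other setting that gave a value, and 5 did not: Fgf21 at day 2 and at day 0, Fgfr3 at day 2 and in the control time course, and Fgf2 at day 0. Of 428 ratios under alternatives, 405 kept the sign, and the 1 called ratio that reversed was Fgf21 in knockdown against control cells at day 0, at -0.15 after cyclic loess. Fgfr3 in the control time course fell to 0.97 with normexp and 0.91 after cyclic loess. For knockdown against control at day 2, the count of higher genes was 1 in place of 2 with normexp, with genes well above background on all compared arrays, and with bright genes only, and the count of lower genes was 1 in place of 2 with the median of all probes and 3, with Fgf2 added, without a filter on dim genes and at a 1.5-fold size. At day 0, the count of higher genes was 1 with normexp, quantile and cyclic loess normalization and 0 with bright genes only, and that of lower genes 1 with normexp and with bright genes only. For day 2 against day 0 in knockdown cells, 2 genes were higher at a 1.5-fold size, and 0 were lower with bright genes only. In control cells, the higher genes lost Fgfr3 with normexp and cyclic loess and the dim Fgf1 with bright genes only. They gained Fgfr1 and Fgfrl1 at a 1.5-fold size. In the same cells, 2 were lower after quantile and cyclic loess normalization, and 0 with genes well above background on all compared arrays or with bright genes only. For the difference of the days, 2 were higher without a filter on dim genes and at a 1.5-fold size. The lower genes of this difference gained Fgfrl1 at a 1.5-fold size and lost the dim Fgf1 with bright genes only. The cause of these changes was not tested. With cyclic loess, the median change of a gene's log2 ratio was -0.14 at day 0 and -0.19 in the control time course. With quantile normalization it was -0.13 in the control time course. The median log2 ratio over all genes, 0.12 at day 0 and 0.18 in the control time course, became 0.00 in both comparisons under either normalization. No paired analysis was possible because each group has 1 array. Signal over background limits Fgf1, Fgf2, Fgf18 and Fgf21.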

Other observations

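Other FGF genes gave values outside the 10 members. Fgf23, which encodes a bone-derived phosphate hormone and was chosen after its values were seen, read 28280 in knockdown cells at day 2, 18160 in control cells at day 2, 22110 in knockdown cells at day 0 and 11570 in control cells at day 0, a log2 ratio of knockdown to control cells of 0.64 at day 2 and 0.93 at day 0. It was the 1 bright gene of 12 other FGF ligands, and both knockdown arrays were above both control arrays. Which transcript its probe reads was not tested. The dim ligand genes Fgf9 and Fgf3 read 18.7 and 12.8 in knockdown cells and 172 and 149 in control cells at day 0, which is 9.20-fold and 11.7-fold lower in knockdown cells. Both read highest on the array where dim genes as a class read low. The dim Fgf15 ran the other way, at 229 in knockdown and 32.5 in control cells at day 0, or 7.07-fold higher. Under the alternatives these log2 ratios ranged over -4.66 to -1.89 for Fgf9, -4.80 to -1.14 for Fgf3 and 1.80 to 2.89 for Fgf15. Of 4 intracellular FGF homologous factors, which are not secreted, 2 were higher at day 0 in knockdown cells, where 18.3% of all genes were. These were Fgf14 and the dim Fgf13, by 2.46-fold and 2.08-fold. Neither call held after quantile or cyclic loess normalization, and the lowest log2 ratios under the alternatives were -0.07, of the opposite sign, and 0.01. None of the 3 compared at day 2 was called.

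Of 13 feedback inhibitors, 2 were higher and 3 lower at day 2 than at day 0 in knockdown cells, where 4.97% of all genes were higher and 8.94% lower. In control cells 3 were higher and 1 lower, where 19.9% and 8.09% of all genes were. Errfi1 was 3.63-fold higher at day 2 than at day 0 in knockdown cells and 12.9-fold higher in control cells, and Il17rd, a membrane inhibitor of FGF receptors, was 2.61-fold and 3.13-fold lower. Spry1 was 2.91-fold lower in knockdown cells, and its log2 ratio in control cells was -0.79, under the 2-fold size. The dim Spry3 ran the other way, at 7.35-fold higher at day 2 in knockdown cells and 8.81-fold higher in control cells. Dusp6 was 2.41-fold higher at day 2 in control cells. Among proteoglycan genes, Tgfbr3 was 5.72-fold higher at day 2 in knockdown cells and 4.19-fold higher in control cells, and Sdc3 2.66-fold and 11.3-fold lower.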
